A study of Homo sapiens with 6 samples.

Results

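Epithelial-mesenchymal transition (EMT) is run by a small set of transcription factors and held back by a set of epithelial regulators, and 10 of these genes were followed here in Hs578T cells with and without CCN3 knockdown. The EMT factors were SNAI1, SNAI2, TWIST1, TWIST2, ZEB1, ZEB2 and PRRX1, and their epithelial opponents were OVOL1, GRHL2 and ESRP1. They were taken by symbol from the 46427 genes of the count table, and all 10 symbols were listed. Hs578T is a triple-negative breast cancer (TNBC) line of mesenchymal-like shape. RNA-seq libraries came from 3 samples of Hs578T transduced with a control shRNA retrovirus (shCTRL) and 3 samples transduced with a retrovirus for CCN3 shRNA (shCCN3), which the labels describe as biological replicates. All 6 grew in the same medium with serum and without further treatment, both lines carry the puromycin vector and were obtained by puromycin selection as what the study calls clones, and a single shRNA against CCN3 was sequenced, so an effect of this shRNA or of this line and an effect of CCN3 loss cannot be told apart.

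SNAI1 (Snail) and SNAI2 (Slug) are zinc finger repressors, TWIST1 and TWIST2 are basic helix-loop-helix factors that act in pairs with E proteins, ZEB1 and ZEB2 are zinc finger and homeodomain repressors, and PRRX1 is a paired-type homeodomain factor of mesenchyme. SNAI and ZEB proteins bind E-boxes in the promoters of epithelial genes such as CDH1 and shut them off. OVOL1 represses ZEB1, GRHL2 represses ZEB1 and sustains CDH1, and ESRP1 sets the epithelial splice forms of genes such as CD44 and FGFR2. ZEB factors and the miR-200 family repress each other, which makes the epithelial and mesenchymal states into a switch with intermediate positions. The comparison asked how the mRNA of each regulator stood when CCN3, a secreted matricellular protein, was knocked down.

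The libraries held between 56159110 and 68393177 counts, and 3 counts in a library, the limit that a count of 0 allows, corresponded to 0.0435 to 0.0540 CPM (counts scaled to a library of fixed size, on library totals scaled with TMM factors), which covers counting error only. CCN3 mRNA, the target, stood at 101 ± 2.43 CPM in shCTRL and 47.0 ± 0.469 CPM in shCCN3 (SD, n = 3), with no overlap. Of 8 epithelial markers, 6 lay below 1 CPM in every library and KRT8 and KRT18 made up nearly all of the summed level, which ran from 174 to 192 CPM in shCTRL and from 226 to 278 CPM in shCCN3. The 6 mesenchymal markers, ZEB1 among them, summed to 11105 to 11135 CPM in shCTRL and 10749 to 10934 CPM in shCCN3. Most of that was VIM, at means of 7778 and 7064 CPM, and FN1, at means of 2362 and 2683 CPM. Of the receptors that triple-negative tumours lack, ESR1 lay below 1 CPM in every library, while PGR averaged 2.86 and 3.8 CPM and ERBB2 77.9 and 78.2 CPM in shCTRL and shCCN3. Summed markers of blood cells stayed under 0.828 CPM. Those of endothelial cells ran from 3.90 to 5.48 CPM in shCTRL and from 3.61 to 4.43 CPM in shCCN3. Most of that was PECAM1, at means of 3.57 and 3.43 CPM. Fewer cells with an mRNA and less of it per cell cannot be told apart in such libraries.

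Promoter sequences were at hand for TWIST2, ZEB1, ZEB2 and PRRX1 (RefSeq, GRCh38.p14). Those of TWIST2 and ZEB1 are shown up to the first base annotated as untranslated. In ZEB2 and PRRX1 the stretch before such a base was too short to show. TWIST2 had the lowest log2 fold change of the tested genes among the 10, and ZEB1 is itself an E-box repressor that epithelial regulators hold down. The capitals in ZEB1 mark CAGGTG, the E-box that SNAI and ZEB proteins recognise.
TWIST2, chr2:238847835-238848031, plus strand: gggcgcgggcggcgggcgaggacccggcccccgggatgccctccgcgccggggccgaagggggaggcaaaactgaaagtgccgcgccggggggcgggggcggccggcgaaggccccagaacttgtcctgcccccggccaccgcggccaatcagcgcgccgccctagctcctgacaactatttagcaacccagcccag
ZEB1, chr10:31318167-31318416, plus strand: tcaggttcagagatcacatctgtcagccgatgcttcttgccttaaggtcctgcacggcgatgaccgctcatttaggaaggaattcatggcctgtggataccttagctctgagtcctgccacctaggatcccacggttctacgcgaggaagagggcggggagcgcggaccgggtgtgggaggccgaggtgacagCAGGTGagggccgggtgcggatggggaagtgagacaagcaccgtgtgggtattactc
Of these 4 promoters, with 1 window a gene, scanned on both strands from 250 bases before to 50 bases after the RefSeq start, only that of ZEB1 held CAGGTG, with its first base 57 bases before the start, and none held the Grainyhead motif AACNGGTT. For comparison, 20.6% of 27305 promoters of the same length held CAGGTG and 1.73% held AACNGGTT. The printed stretch of TWIST2 was 75.6% G and C, against 59.2% for ZEB1. In GENCODE 29 the antisense gene ZEB1-AS1 starts inside ZEB1 and runs the other way across the printed bases. The window taken was the first of 7 that RefSeq lists for ZEB1 and of 2 for ZEB1-AS1. CAGGTG was in 2 of the 7 windows of ZEB1, and in 1 of the 2 of ZEB1-AS1, where it occurred on the opposite strand at positions -159 and -41.

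Of the 10 genes, 7 passed the filter on low counts and were tested, and these were the 7 EMT factors. SNAI2 was higher in shCCN3 cells, TWIST2 and PRRX1 were lower, and TWIST1, ZEB1 and ZEB2 did not pass the test (edgeR's quasi-likelihood test, Benjamini-Hochberg adjusted over 17419 genes). SNAI1 was higher as well, but its call was lost under 7 of 13 other ways of processing. Over all genes tested, 33.4% passed in either direction, 16.2% were higher and 17.3% were lower in shCCN3, so 4 passing of 7, or 3 without SNAI1, is to be read against a transcriptome in which a large share of genes moved. The same 4 factors were those whose 3 shCTRL and 3 shCCN3 values did not overlap, which held for 46.3% of all genes. The median log2 fold change of the 7 was 0.09, against 0.01 over all genes tested. For any single gene, 3 libraries against 3 cannot give an exact two-sided permutation p below 0.1, and each of the 4 reached that value.

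**Figure D1:**
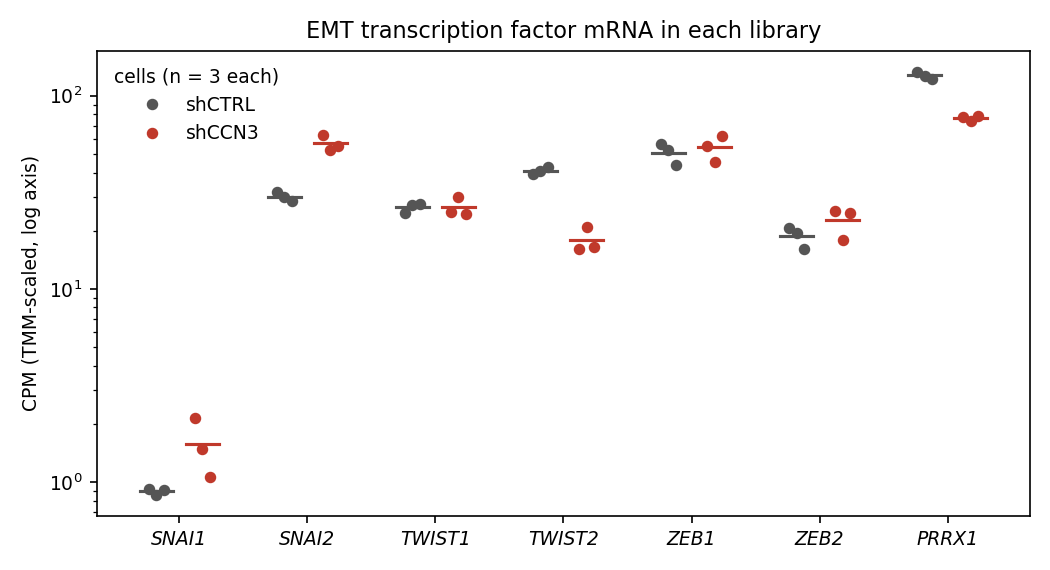
CPM of the 7 tested EMT factors in each library, on a log axis. Points are the 3 libraries of each group and lines their means. The groups of SNAI2, TWIST2 and PRRX1 stand clear of each other, those of TWIST1, ZEB1 and ZEB2 overlap, and SNAI1 spreads from 1.06 to 2.15 CPM within shCCN3.

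SNAI2 was the more abundant Snail factor and nearly doubled in level. It encodes Slug, a repressor of CDH1 that also marks basal mammary cells. Its levels were 31.7, 29.97 and 28.3 CPM in the shCTRL libraries and 62.8, 52.4 and 54.7 CPM in the shCCN3 libraries. Every shCCN3 value lay above every shCTRL value, by more than the spread within either group. The means were 29.99 ± 1.66 and 56.6 ± 5.49 CPM (SD, n = 3), a rise of 1.89-fold with a 95% confidence interval of 1.66 to 2.15. On the log2 scale the difference was 0.92 (standard error, SE, 0.0838, edgeR adjusted p = 4.30e-05). The gene lies on chromosome 8 (chr8:48917598-48921429, GRCh38).

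The region around SNAI2 was also higher in shCCN3 cells. Among the 24 tested genes nearest to it, the median log2 fold change was 0.56, 18 were higher and 1 was lower by the same test, while over the 612 tested genes of chromosome 8 the median was 0.11. Genes of other main functions rose there too, among them PRKDC, a DNA repair kinase, with a log2 fold change of 0.47, UBE2V2, a ubiquitin-conjugating enzyme variant, with 0.29, and RB1CC1, an autophagy factor, with 0.67. They were picked as examples after their values were seen. SNAI2 exceeded the median of its neighbours by 0.36, and 5 of the 24 were at or above it. With the 7 neighbours under 1 CPM set aside, the other 17 had a median of 0.53. The part of this regional shift in the SNAI2 value was not tested.

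**Figure D2:**
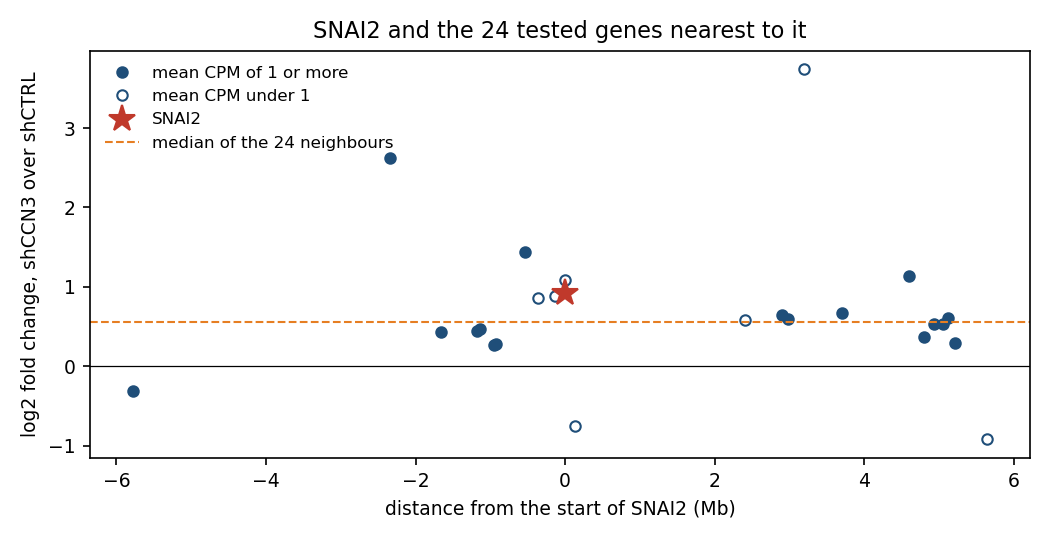
Log2 fold change (shCCN3 over shCTRL) of SNAI2 and its 24 nearest tested genes against distance from the start of SNAI2 in Mb. Filled points had a mean CPM of 1 or more, open points less. Of the 24 neighbours, 21 lie above 0, and the dashed line is their median of 0.56.

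SNAI1, the founding EMT repressor, was the rarest of the 7 factors and the least steady. Its reads numbered 63, 54 and 61 in the shCTRL libraries and 148, 82 and 68 in the shCCN3 libraries. In CPM these were 0.917, 0.860 and 0.909 against 2.15, 1.48 and 1.06. All shCCN3 values were higher, but the lowest of them sat just above the shCTRL range and the highest was apart from the other two. The log2 fold change was 0.80 (SE 0.263, 95% confidence interval 0.21 to 1.40), with an edgeR adjusted p of 0.0418. Without shCCN3 replicate 1, the highest library, the log2 fold change was 0.50 with an adjusted p of 0.166 from the same test. The call was also lost without shCTRL replicate 1, 2 or 3 in turn. The 24 tested genes nearest to SNAI1 on chromosome 20 (chr20:49982980-49988886) had a median of 0.03.

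SNAI2 was 23.3 ± 1.42 times as abundant as SNAI1 per kilobase in shCTRL and 26.9 ± 7.95 times in shCCN3 cells (SD, n = 3). The log2 ratio of their CPM moved by 0.17, with overlapping groups (exact two-sided permutation p = 0.7, and 0.7 adjusted over 3 paralog ratios). Levels per kilobase are given as RPKM, CPM divided by the length in kilobases of the longest principal coding transcript, since longer transcripts collect more reads.

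The TWIST pair separated. TWIST2, which in mammals acts in dermis and bone and can drive EMT as TWIST1 does, was 39.2, 40.8 and 42.8 CPM in shCTRL and 16.0, 21.0 and 16.5 CPM in shCCN3 libraries. Every shCCN3 library lay far below every shCTRL library in comparison with the spread of either group. TWIST2 fell from 40.9 ± 1.78 to 17.8 ± 2.72 CPM (SD, n = 3), a level 2.30-fold lower, and the log2 fold change was -1.20 (SE 0.105, 95% confidence interval -1.44 to -0.96, edgeR adjusted p = 3.27e-05). Of all genes tested, 3.26% had a lower log2 fold change. Its 24 nearest tested genes near the end of chromosome 2 (TWIST2 at chr2:238848085-238910534) had a median of -0.18, with 1 higher and 7 lower, so TWIST2 lay 1.02 below its neighbours on the log2 scale.

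TWIST1 read 24.7, 27.3 and 27.6 CPM in shCTRL and 25.0, 29.9 and 24.5 CPM in shCCN3 libraries. The groups overlapped and their means were 26.5 ± 1.60 and 26.5 ± 3.0 CPM (SD, n = 3). The log2 fold change was -0.00 with a 95% confidence interval of -0.21 to 0.21 (edgeR adjusted p = 0.989), and its sign turned under some other ways of processing, staying between -0.09 and 0.05. TWIST1 lies on chromosome 7 (chr7:19113047-19117636), where the median of 821 tested genes was -0.43 and its 24 nearest tested genes a median of -0.30, with 9 lower and 3 higher. It stood 0.43 above the chromosome on the log2 scale.

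The larger share of the pair passed from TWIST2 to TWIST1. TWIST1 made up 35.3 ± 0.721% of the summed TWIST RPKM in shCTRL and 55.7 ± 1.10% in shCCN3 cells (SD, n = 3). The log2 ratio of TWIST2 to TWIST1 in CPM was 0.67, 0.58 and 0.63 in shCTRL libraries and -0.64, -0.51 and -0.57 in shCCN3 libraries. The groups did not overlap, the difference was -1.20, and the exact two-sided permutation p was 0.1, the smallest possible (0.15 adjusted over the 3 paralog ratios). The summed RPKM of the pair was 45.1 ± 2.16 in shCTRL and 28.6 ± 3.73 in shCCN3 (SD, n = 3). No 50-base stretch of annotated transcript was shared between any of the 10 genes.

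ZEB1 and ZEB2 did not pass the test. ZEB1 was 56.3, 52.1 and 43.8 CPM in shCTRL and 55.2, 45.1 and 61.5 CPM in shCCN3 libraries. Both groups spanned much the same range. The log2 fold change was 0.09 (SE 0.124, 95% confidence interval -0.19 to 0.37, edgeR adjusted p = 0.627). That interval held both falls and rises in ZEB1 mRNA, so neither was shown, and a change of a size within it is not excluded.

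ZEB2 was 20.6, 19.4 and 16.1 CPM in shCTRL and 25.3, 17.9 and 24.7 CPM in shCCN3 libraries. The shCCN3 replicate 2 fell inside the shCTRL range and the other two shCCN3 libraries lay above it. The log2 fold change was 0.28 (SE 0.140, 95% confidence interval -0.04 to 0.59) with an edgeR adjusted p of 0.167. Without shCCN3 replicate 2 it was 0.42 and passed, with an adjusted p of 0.00725.

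The libraries low in ZEB1 were also low in ZEB2 and in other genes with long transcripts. As log2 deviations from the mean of its group, ZEB1 stood at 0.16, 0.05 and -0.20 in shCTRL and at 0.04, -0.25 and 0.20 in shCCN3 libraries, and ZEB2 stood at 0.15, 0.06 and -0.21 and at 0.18, -0.32 and 0.14. The median deviation of long genes minus that of short genes, by length of exons, was 0.07, 0.03 and -0.10 in shCTRL and 0.07, -0.19 and 0.13 in shCCN3 libraries. The shCTRL replicate 3 and the shCCN3 replicate 2 were the lowest of their groups in all of these. Both were also the lowest of their groups in SNAI2 (-0.08 and -0.11) and PRRX1 (-0.06 and -0.05). In TWIST1 (0.06 and 0.18) and TWIST2 (0.06 and 0.24) they were the highest. The part of that library difference in the values of the ZEB genes, SNAI2, PRRX1 and the TWIST genes was not tested.

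ZEB1 and ZEB2 lie at chr10:31318417-31529804 and chr2:144384081-144520119, and their nearest tested genes had medians of 0.04 and 0.12. ZEB1 held 82.7 ± 0.112% of the summed ZEB RPKM in shCTRL and 80.8 ± 1.27% in shCCN3 cells (SD, n = 3). The log2 ratio of ZEB2 to ZEB1 in CPM was higher by 0.18 in shCCN3, going from -1.45, -1.43 and -1.44 to -1.12, -1.33 and -1.32, without overlap (exact two-sided permutation p = 0.1, and 0.15 adjusted over the 3 paralog ratios). The ratio spread by an SD of 0.0113 in shCTRL and 0.116 in shCCN3.

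ZEB1-AS1, the antisense gene at the ZEB1 start, rose from 5.88 ± 0.334 to 7.92 ± 0.235 CPM (SD, n = 3), a log2 fold change of 0.43 (SE 0.0936, edgeR adjusted p = 0.00686). ZEB2-AS1 had 2 reads in all 6 libraries together. No source states if strand entered the counting, and reads in the overlap of ZEB1 and ZEB1-AS1 could have gone to either gene. Of the 9433 different 50-base stretches in annotated ZEB1 transcripts, 268 also occur in ZEB1-AS1, and of the 25802 in ZEB2, 1052 occur in ZEB2-AS1, on either strand.

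PRRX1 had the highest CPM of the 10 genes and was lower in every shCCN3 library. This homeobox gene shapes limb and craniofacial mesenchyme and is known for an EMT that need not come with stemness. It was 132.8, 126.9 and 122.1 CPM in shCTRL and 77.4, 73.6 and 78.2 CPM in shCCN3 libraries. The groups were far apart in comparison with their spread. PRRX1 fell from 127 ± 5.36 to 76.4 ± 2.43 CPM (SD, n = 3), a level 1.67-fold lower, with a log2 fold change of -0.74 (SE 0.0597, 95% confidence interval -0.87 to -0.60, edgeR adjusted p = 2.07e-05). The gene lies on chromosome 1 (chr1:170662768-170739421), and its 24 nearest tested genes had a median of 0.12, with 4 higher and 1 lower.

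**Figure D3:**
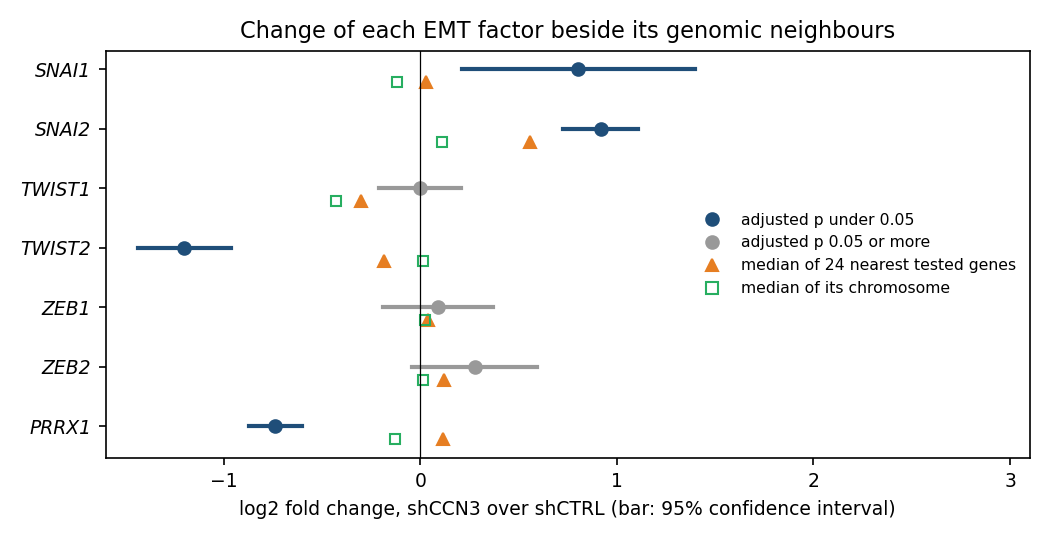
Log2 fold change (shCCN3 over shCTRL) of the 7 tested EMT factors with 95% confidence intervals, blue where the adjusted p was under 0.05. Triangles are medians of the 24 nearest tested genes and squares medians of the chromosome. SNAI2 is the factor with the highest neighbour median, 0.56, while TWIST2 and PRRX1 lie well below theirs of -0.18 and 0.12.

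Set against each other per kilobase, the factors stood in another order in shCCN3 than in shCTRL cells. In shCTRL cells PRRX1 (29.7 ± 1.25 RPKM) and TWIST2 (29.2 ± 1.27) led, with overlapping libraries, and TWIST1 (15.9 ± 0.963), SNAI2 (12.4 ± 0.686), ZEB1 (9.35 ± 1.17), ZEB2 (1.96 ± 0.243) and SNAI1 (0.531 ± 0.0184) followed without overlap between neighbours (SD, n = 3). In shCCN3 cells SNAI2 led with 23.3 ± 2.26 RPKM, clear of the rest. PRRX1 (17.8 ± 0.568 RPKM) and TWIST1 (15.9 ± 1.80) overlapped, as did TWIST1 and TWIST2 (12.7 ± 1.94), and ZEB1 (9.95 ± 1.53), ZEB2 (2.37 ± 0.429) and SNAI1 (0.926 ± 0.325) came below them (SD, n = 3).

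The summed RPKM of the 7 factors was 99.0 ± 1.30 in shCTRL and 83.0 ± 1.39 in shCCN3 cells. SNAI2 supplied 12.5 ± 0.549% of that sum in shCTRL and 28.1 ± 2.32% in shCCN3 cells. TWIST2 supplied 29.5 ± 1.66% and 15.3 ± 2.41%, and PRRX1 30.01 ± 0.931% and 21.5 ± 0.777% (SD, n = 3). With the union of all annotated exons as the length, a choice added after the data were seen, TWIST2 led PRRX1 in shCTRL (21.8 and 15.4 RPKM) and TWIST1 came second to SNAI2 in shCCN3 (13.02 and 16.7 RPKM), so the order of PRRX1 depends on the transcript length taken. SNAI2 stood at place 4 in shCTRL and place 1 in shCCN3 with either length.

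**Figure D4:**
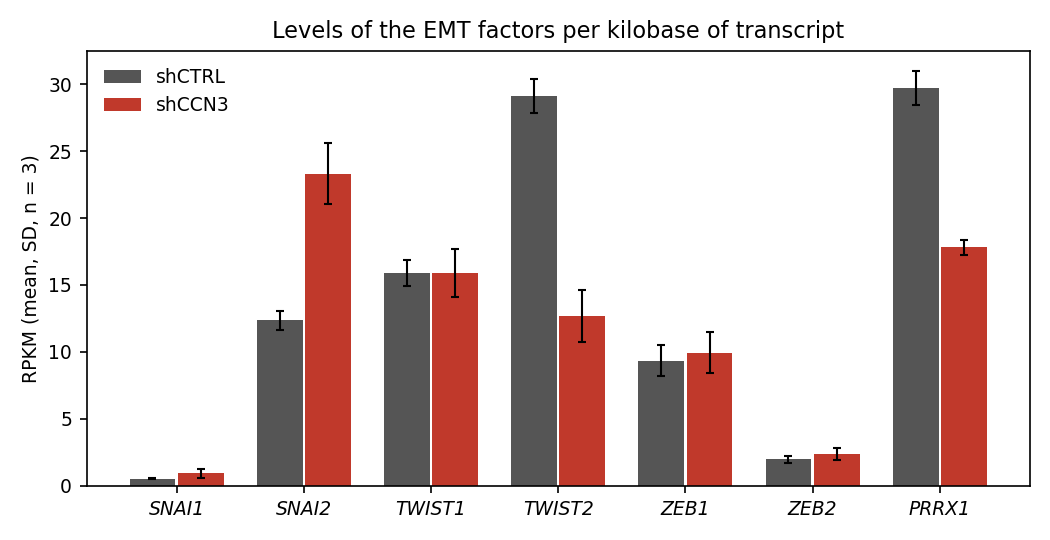
RPKM of the 7 EMT factors in both groups, from the longest principal coding transcript. Bars are means and error bars SD (n = 3). PRRX1 and TWIST2 lead in shCTRL at 29.7 and 29.2, and SNAI2 leads in shCCN3 at 23.3.

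The epithelial opponents were near or at 0 on both sides of the comparison and could not be tested. OVOL1 had no read in any of the 6 libraries, which allows up to 0.0435 to 0.0540 CPM in each, and 953 of the 3795 50-base stretches of its transcripts also lie in an antisense gene annotated there. GRHL2 had 3 reads, all in shCTRL replicate 2, and ESRP1 had 7 reads, all in shCCN3 replicate 1 (0.102 CPM there). No fold was computed for them. CDH1, the E-cadherin gene that GRHL2 sustains and that SNAI and ZEB proteins repress, had 23 reads over all 6 libraries, with 2, 2 and 5 in shCTRL and 5, 0 and 9 in shCCN3. The highest value in any library was 0.141 CPM for CDH1, 0.102 for ESRP1, 0.0478 for GRHL2 and 0 for OVOL1. A change within those low levels was not detectable at this depth, and no library showed a rise above them.

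The relatives of the opponents were mostly low as well. Of 14 related epithelial regulators, 9 were tested, and 1 was higher and 1 lower, a share of 22.2% against 33.4% over all genes. Their median log2 fold change was -0.24. KLF5, a factor of basal epithelia, rose from 4.23 ± 0.659 to 10.3 ± 1.30 CPM (SD, n = 3), a log2 fold change of 1.28 (edgeR adjusted p = 0.000125). ELF5, a luminal regulator, had 21, 14 and 30 reads in shCTRL and none in any shCCN3 library, at 0.325 CPM on average in shCTRL, and is named because it is the 1 that was lower, after its values were seen. Among the paralogs of the opponents, GRHL1 stood at 2.66 and 2.25 CPM (adjusted p = 0.365) and ESRP2 at 0.209 and 0.322 CPM (adjusted p = 0.344) in shCTRL and shCCN3. Of 8 genes and host genes of the miR-200 family and miR-205, none was tested and 7 had no read in any library, MIR200A among them, while MIR429 had 1 read. Poly(A) libraries hold little of short precursors, so this says nothing of mature miRNAs.

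In a list of other transcription factors that can drive EMT, most of those tested were higher in shCCN3 cells. Of 10 such genes, 7 were tested, 6 were higher and none was lower in shCCN3, against 16.2% higher over all genes, with a median log2 fold change of 0.59 against 0.01 over all genes. KLF8, a Kruppel-like repressor of CDH1, rose from 1.33 ± 0.101 to 5.13 ± 0.734 CPM, or 1.95 on the log2 scale (adjusted p = 1.80e-05). ETS1, an activator of matrix proteases, rose from 17.4 ± 1.57 to 32.0 ± 2.95 CPM (SD, n = 3), a log2 fold change of 0.88 (edgeR adjusted p = 0.000120). Among the others, SOX4 rose by 0.85 and FOXC2 by 0.55 on the log2 scale, and both are named after their values were seen. PRRX2, the paralog of PRRX1, lay at 0.362 and 0.182 CPM and did not pass (adjusted p = 0.163). The count of 6 was obtained under all 13 other ways of processing, on a list chosen with earlier results of these data known.

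TWIST proteins pair with E proteins, and ID proteins, which lack a DNA-binding region, tie those up. Of 7 such genes, 6 were tested, with 1 higher and 1 lower, or 33.3% against 33.4% over all genes. TCF4, an E protein also known as E2-2, rose from 1.69 ± 0.0906 to 4.20 ± 0.896 CPM (SD, n = 3; log2 fold change 1.32, edgeR adjusted p = 0.000489). ID2 fell from 57.5 ± 3.32 to 34.1 ± 1.72 CPM (log2 fold change -0.75, adjusted p = 5.06e-05), while the far more abundant E protein TCF3 gave 181 and 176 CPM (adjusted p = 0.616).

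Of 12 corepressors that Snail and ZEB proteins recruit, all were tested, 2 were higher and 3 lower (41.7% against 33.4% over all genes), with a median log2 fold change of 0.07. AJUBA, a LIM protein that binds the SNAG end of Snail, had a log2 fold change of 1.36 (31.9 ± 3.45 to 82.0 ± 6.79 CPM, SD, n = 3). The histone deacetylases parted, HDAC2 with a log2 fold change of 0.65 and HDAC1 with -0.61. EZH2, the Polycomb methyltransferase, had -0.28, and KDM1A, a histone demethylase that binds the same SNAG end, had -0.18 and is named as the remaining gene that passed. Of 8 genes for kinases, ubiquitin ligases and a deubiquitinase that act on Snail proteins, all were tested, and BTRC was higher (log2 fold change 0.23, adjusted p = 0.0495) and FBXL14 lower (-0.52, adjusted p = 0.0158), or 25.0% of them. Both shares are near that of all genes. These counts were not steady, and without 1 library at a time the corepressors that passed numbered 4 to 9 and the turnover genes 0 to 3, with 9 and 3 without shCCN3 replicate 2 and no turnover gene without shCTRL replicate 1 or 2 or shCCN3 replicate 3.

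Genes known to fall or to rise in EMT did not move one way. Of 30 epithelial genes known to be repressed in EMT, 16 were tested, 7 were higher and 2 lower, with a median log2 fold change of 0.25. DSP, the desmosome protein desmoplakin, rose from 2.96 ± 0.136 to 62.0 ± 9.06 CPM (SD, n = 3), a log2 fold change of 4.39 (edgeR adjusted p = 6.47e-08). AP1M2, an adaptor for sorting to the basolateral membrane, had a log2 fold change of 1.96. The keratin partners KRT8 and KRT18 went opposite ways, KRT8 with -0.52 and KRT18 with 0.51. CLDN4, a tight junction claudin, had -2.33 at a mean of 0.754 CPM in shCTRL. KRT18 and CLDN4 are named after their values were seen.

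Of 25 mesenchymal genes, all were tested, 11 were higher and 3 lower, with a median log2 fold change of 0.21. COL3A1, a fibrillar collagen, rose from 0.474 ± 0.0352 to 12.0 ± 0.961 CPM and TAGLN, a smooth muscle actin-binding protein, from 2.46 ± 1.14 to 37.7 ± 4.88 CPM (SD, n = 3), log2 fold changes of 4.66 and 3.94. MMP2, a gelatinase, fell from 527 ± 19.7 to 189 ± 5.92 CPM (log2 fold change -1.48). CDH2, N-cadherin, rose from 89.0 ± 6.55 to 162 ± 17.3 CPM (log2 fold change 0.87, edgeR adjusted p = 9.06e-05). VIM, the intermediate filament vimentin, stood at 7778 ± 186 and 7064 ± 477 CPM (log2 fold change -0.14, adjusted p = 0.0961). Both the epithelial and the mesenchymal list thus held more genes that rose than fell, and the share that passed was 56.2% in the first and 56.0% in the second, above the 33.4% of all genes. Nothing particular to either list is read from that.

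Of 10 splicing regulators other than ESRP1 known to act in EMT, 9 were tested and 2 were higher, or 4 without shCCN3 replicate 2. The 2 were 22.2% of those tested, against 16.2% higher over all genes. QKI, which promotes mesenchymal splice forms, rose from 41.5 ± 4.77 to 79.0 ± 14.7 CPM (SD, n = 3; log2 fold change 0.93, adjusted p = 0.000694), and PTBP1 rose by 0.27 on the log2 scale (adjusted p = 0.00671, both by edgeR). Among 4 genes whose transcripts ESRP1 splices, 3 were tested and 1 passed, which is 33.3% against 33.4% over all genes. CD44 fell by 0.25 on the log2 scale (adjusted p = 0.00429) and FGFR2 had no read in any library, while all 3 passed without shCCN3 replicate 2. These are totals over all transcripts of a gene and hold nothing on splice forms.

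**Figure D5:**
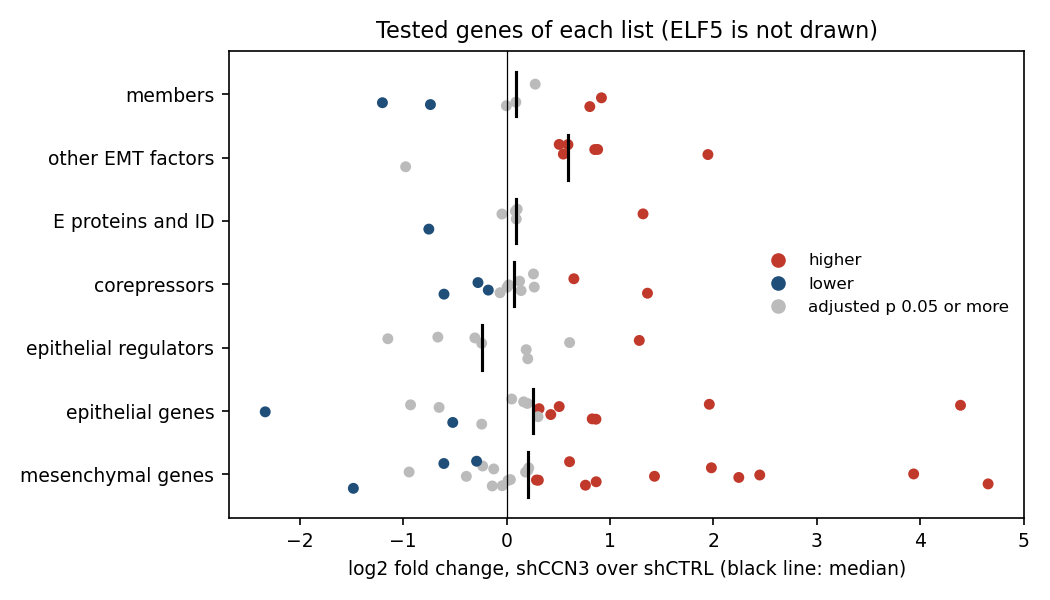
Log2 fold change (shCCN3 over shCTRL) of every tested gene in 7 lists, red where higher and blue where lower with an adjusted p under 0.05. Black lines are medians over all tested genes of a list. Other EMT factors have the highest median, 0.59, while ELF5, with no read in shCCN3, counts in its list's median but is not drawn.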

How the data were processed

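The authors sequenced poly(A) RNA of 3 shCTRL and 3 shCCN3 samples of Hs578T with a stranded mRNA kit and deposited raw read counts for 46427 genes by Gene ID and symbol, not normalized. Per the submitters' processing notes, bcl2fastq 2.20.0, Trimmomatic, HISAT2 2.1.0, StringTie 2.1.3d and DESeq2 were used on GRCh38. The annotation and the use of strand in counting are not given in the sources used here.

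From these counts, edgeR 4.0.16 (R 4.3.3) gave TMM-scaled CPM and log2 fold changes (shCCN3 over shCTRL), with its filter on low counts by group, the quasi-likelihood test and Benjamini-Hochberg adjustment over 17419 genes at 0.05, on all 6 libraries without a block. The study's general test for pairs of groups, on means, was not used on counts. Total counts were 56159110 to 68393177. p-values rest on the spread between 3 samples a group. The alternatives were DESeq2 size factors, upper-quartile factors, no filter, a minimum of 10 counts in each library, the test of DESeq2 1.42.0, limma-voom (limma 3.58.1), a replicate block and each library left out.

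The members and gene lists were chosen with earlier results of these data known. Of each list, up to 2 genes a direction were named by size of change, among those passing with a mean CPM of at least 1 and no overlap between groups, or the 2 highest where none passed, and CDH1, VIM and CDH2 always. Positions came from RefSeq for 44698 Gene IDs and lengths from GENCODE 29 for 26551. Scripts were tested on simulated data. The values of some list genes are not reported here. Protein sequences were not analysed here.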

Additional observations from a re-analysis of the deposited data

How the results depend on the processing

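SNAI2, TWIST2 and PRRX1 passed the test in the same direction under all 13 alternatives, with log2 fold changes of 0.84 to 0.97, -1.33 to -1.13 and -0.76 to -0.71. SNAI1 ran from 0.50 to 1.02 (adjusted p 0.0112 to 0.166) and did not pass with no low-count filter, with limma-voom, with the replicate block or without shCCN3 replicate 1 or any 1 of the shCTRL libraries. The factors that were higher therefore numbered 1 in those fits, and 1 to 3 with each library left out (3, with ZEB2, without shCCN3 replicate 2). TWIST1 changed sign with DESeq2 size factors (0.00039), with at least 10 counts in every sample (0.00062) and with the DESeq2 test (0.00038), and ran from -0.0949 to 0.0518 with each library left out. ZEB1 ran from -0.0152 to 0.205 with each library left out, and was -0.00509 without shCTRL replicate 3 and -0.0152 without shCCN3 replicate 3. The genes of Snail turnover that passed numbered 1 with no filter, limma-voom and the replicate block, and 0 to 3 with each library left out. The genes ESRP1 splices numbered 2 by DESeq2 and 1 to 3 with each library left out, the corepressors 4 to 9 and the splicing regulators 2 to 4. The causes were not tested. Over all genes 4181 to 7229 passed. Libraries with the same replicate number did not deviate together (correlations 0.0891, -0.0256 and -0.0657), so the replicate block is given here only, and it changed no other call among the 10 genes. Scaling moved the median of all genes by under 0.1 on the log2 scale.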
